A study of Mus musculus with 13 samples.

Results

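The 10 genes described here encode growth factors, tumour necrosis factor (TNF) family ligands and chemokines through which T cells act on macrophages, dendritic cells, granulocytes and their precursors: Csf1, Csf2, Il3, Tnf, Lta, Ltb, Ccl3, Ccl4, Ccl5 and Xcl1. They were taken by gene symbol from 2 count tables and are 10 of 24417 named genes. The study sorted CD4 T cells from spleen and lymph node of C57BL/6 mice and used a Foxp3 allele (LSL) with a stop cassette and Thy1.1 reporter that Cre recombinase can remove. Cells that transcribe this allele without making Foxp3 protein are called wannabes, and cells in which Foxp3 was switched on by tamoxifen are called rescued Treg cells. All libraries came from cells sorted on 2 rounds as TCRβ+CD4+CD8-NK1.1-, with regulatory T (Treg) cells taken as Foxp3(GFP)+Thy1.1- and wannabes as Thy1.1+Foxp3-. The study's methods give 2 or 3 biological replicates a group, and bulk RNA of each was sequenced after low-input amplification.

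In the male experiment, control Treg cells (3 libraries) came from Foxp3DTR-GFP/yCd4creERT2 mice, rescued Treg cells (3 libraries) from Foxp3LSL/yCd4creERT2 mice, and male wannabes (2 libraries) from Foxp3LSL/yCd4wt mice. All 3 groups received 4-hydroxytamoxifen as a single dose at postnatal day 14 and were analysed on day 21, 7 days later. The Cre is made from the Cd4 locus, so it is not limited to Treg cells, and male wannabes carry none. In the study Foxp3LSL/y males developed multi-organ autoimmune inflammation, while the Foxp3DTR-GFP/yCd4creERT2 controls were healthy. Control Treg cells differ from rescued Treg cells in the Foxp3 allele (DTR-GFP against LSL) and in the state of the mouse. They also differ in how long Foxp3 was made, and these cannot be told apart. Rescued Treg cells and male wannabes differ in Foxp3, in Cre and in whether the mouse had Treg cells restored, which cannot be told apart either. In the female experiment, resting wannabes (3 libraries) came from Foxp3LSL/WTCd4wt mice, which keep Treg cells made from the wild-type allele. Activated wannabes (2 libraries) came from Foxp3LSL/DTRCd4wt mice, in which diphtheria toxin kills the Treg cells and which the study describes as sick. Both female groups received diphtheria toxin 7, 5, 3 and 1 days before analysis at an age of 9 to 11 weeks per the labels. The series description gives the sizes of these 2 groups the other way round. The sample titles, which match the study's methods, were used. Sex, age, treatment and experiment differ together between male and female libraries, so levels of the 2 experiments are set side by side without a test.

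As background, Csf1, Csf2 and Il3 encode the colony-stimulating factors M-CSF, GM-CSF and interleukin-3, which keep myeloid cells alive, make them divide and alter their state, and activated T cells are a known source of GM-CSF and interleukin-3. Tnf, Lta and Ltb lie next to each other in the genome: TNF and lymphotoxin α signal through the TNF receptors, and lymphotoxin β joins lymphotoxin α in a membrane complex that binds the lymphotoxin β receptor on stromal and myeloid cells. Ccl3, Ccl4 and Ccl5 attract monocytes, macrophages and T cells, whereas Xcl1 acts on Xcr1, the receptor of cross-presenting dendritic cells.

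Libraries held 25556783 to 36659638 counts in the male experiment and 28059854 to 31462226 in the female experiment. Levels below are normalized counts, scaled within each experiment by library size and the TMM factor, and a gene is called where edgeR's quasi-likelihood test gives an adjusted p under 0.05 (Benjamini-Hochberg, over all genes tested). Foxp3, the gene the alleles alter, had 5466, 7046 and 8282 normalized counts in control Treg replicates 1 to 3 and 28404, 29736 and 36479.7 in rescued Treg replicates 1 to 3. It had 2759.8 and 3280.5 in the male wannabes, 2074, 1995 and 2224 in resting wannabes and 1570.0 and 1731 in activated wannabes. The rescued libraries were all higher than the control libraries, and these all higher than the male wannabes. A count over the gene cannot separate transcripts that end in the cassette from complete ones. All 7 T cell genes of the marker list (Cd3d, Cd3e, Cd3g, Cd4, Foxp3, Il2ra and Thy1) were counted in every library. Their summed level was 108102 in control Treg replicate 1 and between 99561 and 151617 over all 13 libraries. The libraries of a group differed far beyond counting error: chi-square per degree of freedom between replicates was 144 for the 2 male wannabes, 143 for rescued Treg replicates 1 and 3, and 13.2 for the 2 activated wannabes.

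**Figure D1:**
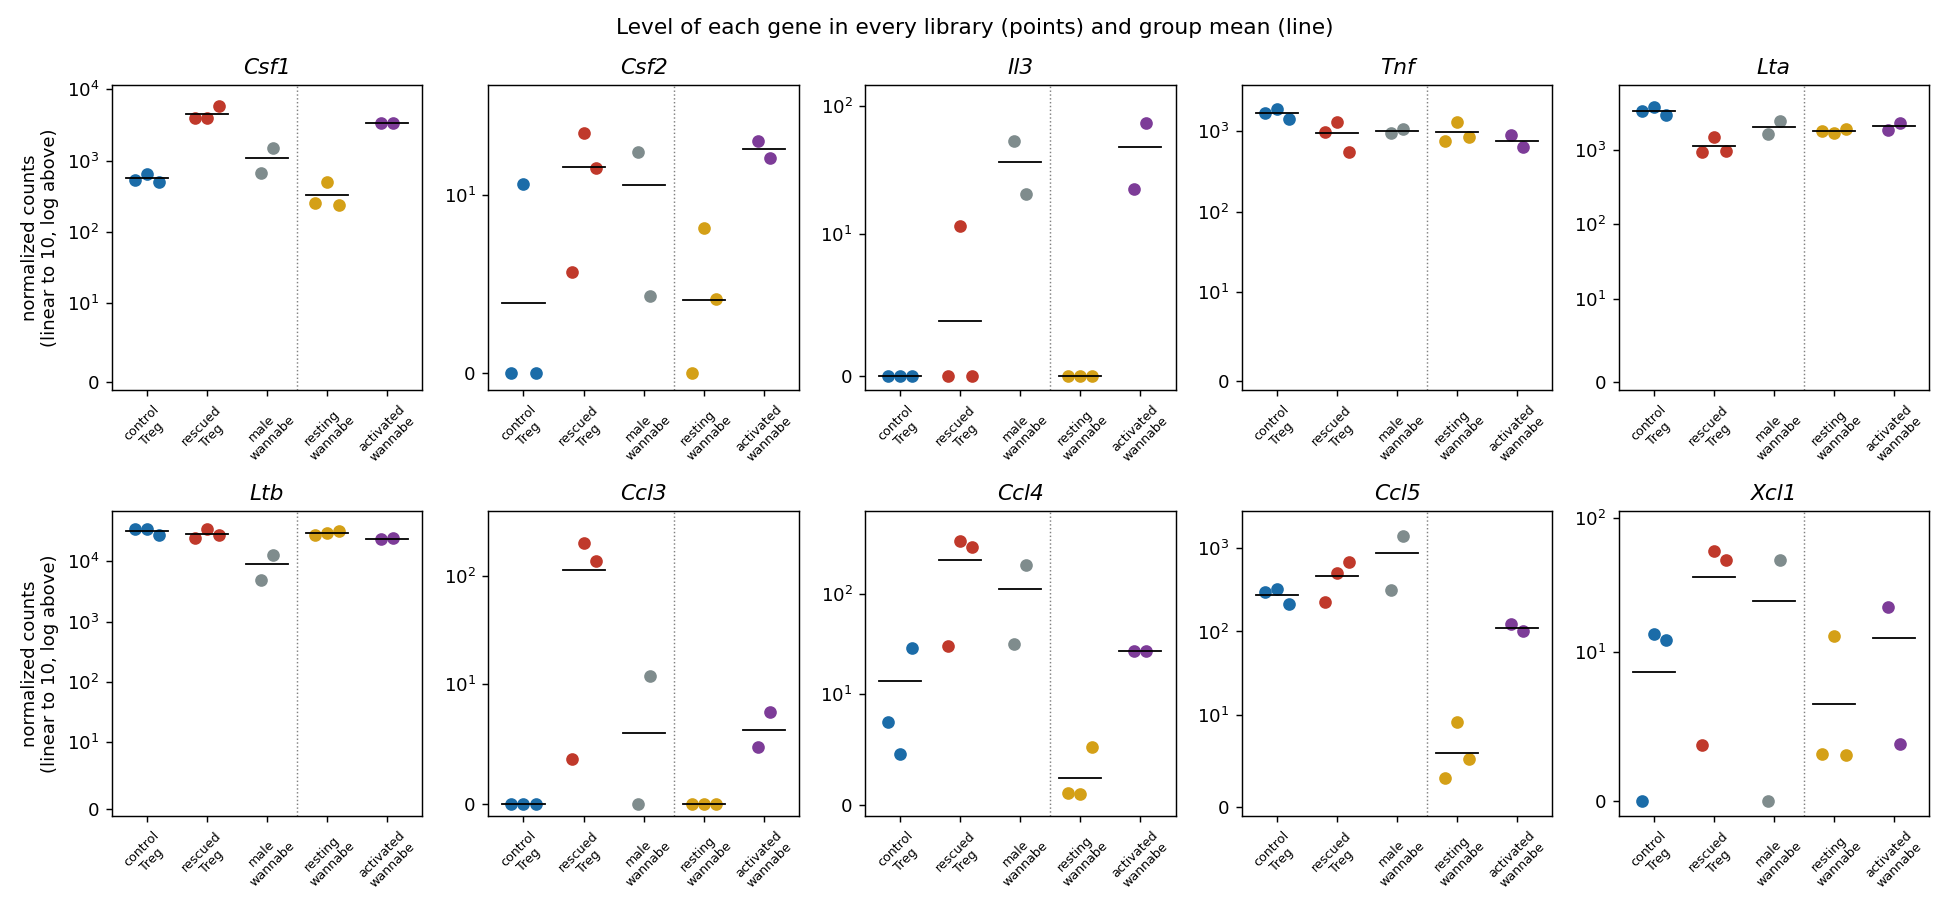
Normalized counts of the 10 genes in all 13 libraries, on an axis linear to 10 and logarithmic above; the dotted line separates the male from the female experiment, and levels of different genes are not comparable in this unit. Csf1 has 3947 to 5782 normalized counts in rescued Treg cells and 507 to 661 in control Treg cells.

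In rescued against control Treg cells, Csf1 rose and Lta fell among the 10 genes tested, where edgeR called 2.3 percent of 14925 genes (1.43 percent higher and 0.864 percent lower). Without regard to the test, all rescued libraries lay above all control libraries for Csf1, Ccl3 and Ccl4 and below them for Tnf and Lta, while 12.7 and 11.5 percent of all genes did so. The median log2 fold change of the 10 was 1.96 as fitted and 1.32 with genes at 0 in a whole group set to their bound, against -0.03 over all genes. In control Treg cells against male wannabes, only Ltb of the 10 was called, and it was higher in control Treg cells, with 16.2 percent of genes called in all (9.92 percent higher and 6.27 percent lower). Control libraries lay wholly above the wannabes for Tnf, Lta and Ltb (background 25.3 percent) and wholly below them for Csf1, Il3 and Ccl4 (background 20.7 percent), with a median of -1.49 as fitted and -1.24 with the bound, against 0.09. In rescued Treg cells against male wannabes, Csf1 and Ltb rose and Lta fell (background 14.1 percent, 10 higher and 4.06 lower). The libraries did not overlap for Csf1 and Ltb, higher in rescued Treg cells (background 21.9 percent), nor for Il3 and Lta, lower (background 20.8 percent), and the median was 0.48 against 0.00.

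In activated against resting wannabes, 9 of the 10 genes were tested: Csf1, Il3, Ccl4 and Ccl5 rose and Ltb fell, against 22.5 percent of 13166 genes called (11.3 percent higher and 11.2 percent lower). Csf1, Csf2, Il3, Ccl4 and Ccl5 had all activated libraries above all resting ones (background 28.2 percent) and Ltb all below (background 28.4 percent), and the median of the 9 was 2.20 against -0.01. A further contrast over all 13 libraries tests whether the change from control to rescued Treg cells differs from the change from resting to activated wannabes; Lta alone of the 10 was called, with 1.53 percent of 15201 genes called (0.803 percent higher and 0.73 percent lower). The median of this contrast over the 8 genes with counts in all 5 groups was -0.33, against -0.03 over all genes. The 3 male comparisons share libraries in pairs, so their calls are not separate measurements. DESeq2 called 4, 5, 3, 5 and 2 of the 10 in these 5 contrasts where edgeR called 2, 1, 3, 5 and 1, and it also called more of all genes, 7.34, 24.1, 21.1, 29.2 and 5.07 percent. At an unadjusted p under 0.05 in edgeR were 16.1, 31.2, 28, 38.1 and 13.8 percent of all genes, which stand as the background of such counts for the lists below.

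**Figure D2:**
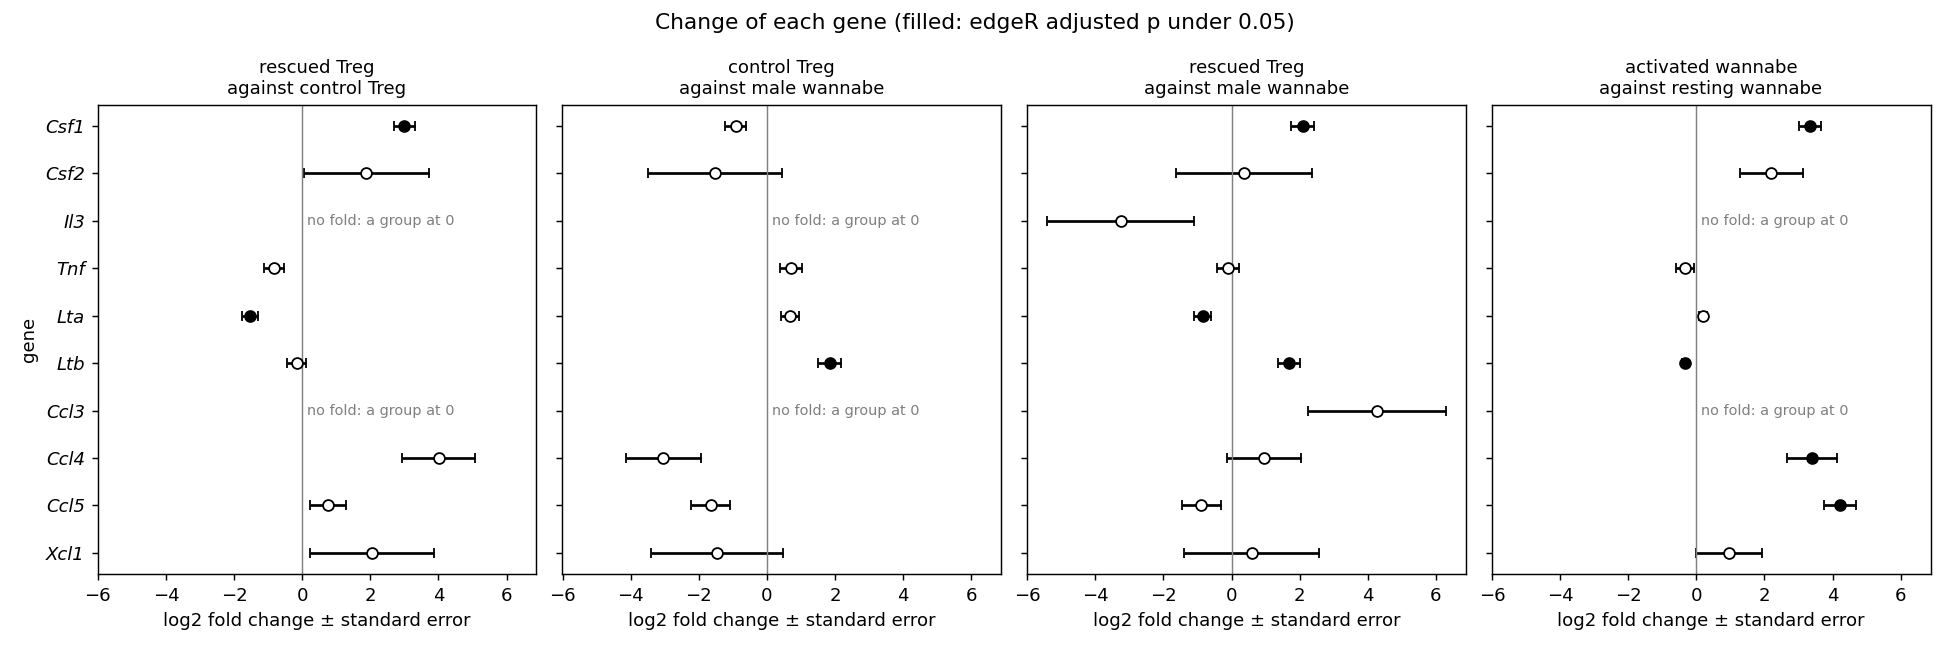
Log2 fold change with its standard error for each gene in 4 comparisons, filled where edgeR's adjusted p is under 0.05; no fold is drawn where all libraries of a group have 0 counts. Csf1 is at 3.00 in rescued against control Treg cells and at 3.35 in activated against resting wannabes.

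Per length, in RPKM (reads scaled to exon length and library size), Ltb was the highest of the 10 genes in every group, with group means of 638 (SD 80.5) in control Treg cells, 569 (SD 99.6) in rescued Treg cells, 178 (SD 111) in male wannabes, 652 (SD 40.2) in resting and 521 (SD 12.4) in activated wannabes. That puts Ltb above 98.4 percent of genes by mean RPKM in male wannabes and above 99.9 percent in control Treg cells. Lta came next in 4 of the groups, at 72.6 (SD 8.33) RPKM in control Treg cells, 45.1 (SD 12.7) in male wannabes, 43.3 (SD 2.6) in resting and 49.9 (SD 7.19) in activated wannabes. In rescued Treg cells came Csf1 at 26.4 (SD 6.06), Lta at 25 (SD 6.93), Tnf at 17.5 (SD 6.87) and Ccl5 at 15 (SD 7.31) RPKM. These means overlapped within 1 SD, so their order is not certain. Csf2, Il3 and Xcl1 were low in all groups, the highest group means being 0.821 (SD 0.135) RPKM for Csf2 and 2.58 (SD 1.93) for Il3, each in activated wannabes, and 2.13 (SD 1.67) for Xcl1 in rescued Treg cells. Ccl4 and Ccl3 reached 10.1 (SD 7.6) and 4.6 (SD 4.05) RPKM in rescued Treg cells, their highest group means.

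Csf1, the growth factor on which most tissue macrophages depend, is the gene of the set with the largest called change in rescued against control Treg cells. Control Treg replicates 1 to 3 had 544, 661 and 507 normalized counts of Csf1 and rescued Treg replicates 1 to 3 had 3947, 3979.9 and 5782. Male wannabe replicates 1 and 2 had 663 and 1498. Every rescued library was above every other male library, and the higher male wannabe lay well above the lower, which was level with the highest control library. Csf1 was thus higher in rescued than in control Treg cells (log2 fold change 3.00, standard error 0.305, edgeR adjusted p = 0.00112), with the log2 fold change between 2.80 and 3.12 whichever library was left out. It was also higher in rescued Treg cells than in male wannabes (log2 fold change 2.08, standard error 0.342, edgeR adjusted p = 0.00228). That log2 fold change lay between 1.61 and 2.74 whichever library was left out, and was 2.74 without male wannabe replicate 2. Control Treg cells against male wannabes gave -0.92 (edgeR adjusted p = 0.0699). That difference was called without male wannabe replicate 1 (-1.39, edgeR adjusted p = 0.00696), by DESeq2 (adjusted p = 0.0185) and without the filter on low counts (edgeR adjusted p = 0.0324), but without male wannabe replicate 2 it was -0.26 (edgeR adjusted p = 0.575). In this comparison of control Treg cells with male wannabes, Csf1 had adjusted p-values of 0.00696 to 0.575 over its 13 alternative fits in edgeR or DESeq2. Each such range here and below is of 1 comparison and leaves aside a fit chosen after seeing the data, described below. Because these are bulk samples, more cells that make Csf1 and more Csf1 RNA per cell cannot be told apart, and the same holds for fewer cells or less RNA in every result below.

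In the female experiment, Csf1 had 253, 508 and 235 normalized counts in resting wannabe replicates 1 to 3 and 3424 and 3356 in activated wannabe replicates 1 and 2. The activated libraries lay close together and far above all 3 resting libraries. Csf1 rose in activated wannabes (log2 fold change 3.35, standard error 0.323, edgeR adjusted p = 0.00128), and it was called in 5 of 5 fits with a library left out, at 3.15 to 3.79. In RPKM the group means of Csf1 ran from 2.12 (SD 0.973) in resting wannabes through 3.29 (SD 0.463) in control Treg cells, 6.24 (SD 3.41) in male wannabes and 21.6 (SD 0.304) in activated wannabes to 26.4 (SD 6.06) in rescued Treg cells. Within spread, resting wannabes and control Treg cells overlapped, as did control Treg cells and male wannabes within 1 SD, whereas the upper 2 groups stood apart from the lower 3. The change in rescued against control Treg cells minus the change in activated against resting wannabes was -0.33 for Csf1 (log2, standard error 0.482, edgeR adjusted p = 0.86).

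Csf2 and Il3, neighbours on chromosome 11 whose products drive granulocytes and macrophages, were counted only at low levels. Csf2 had 0 to 24.6 normalized counts in all libraries: 0, 11.8 and 0 in control Treg cells, 5.67, 24.6 and 14.7 in rescued Treg cells and 18.8 and 4.32 in male wannabes. The 3 male groups overlapped, and edgeR called none of their comparisons (adjusted p = 0.711, 0.648 and 0.935). In the female experiment Csf2 had 0, 8.14 and 4.15 in resting and 21.8 and 17.2 in activated wannabes, so the 2 activated libraries were higher, without a call (log2 fold change 2.20, standard error 0.927, edgeR adjusted p = 0.134). The annotated gene Gm12223 runs antisense over Csf2 and is not in the tables, and since the strand setting is not given in the sources used here, reads of the 2 cannot be told apart.

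Il3 was at 0 in all 3 control Treg libraries, at 0, 11.6 and 0 normalized counts in rescued Treg cells and at 53.5 and 20.5 in male wannabes. Il3 was likewise at 0 in all 3 resting wannabes and at 22.7 and 73.7 in the activated wannabes. Male and activated wannabes had the only Il3 levels above 11.6 normalized counts, and no Treg library other than rescued replicate 2 had a count. Set against a floor of 3 counts per library, which covers counting error only since no molecular tags were used, Il3 was at least 15.5-fold higher in activated than in resting wannabes (edgeR adjusted p = 0.0165). That call was lost when activated wannabe replicate 1 (edgeR adjusted p = 0.0516) or replicate 2 (edgeR adjusted p = 0.112) was left out. On the same floor Il3 was at least 12.7-fold higher in male wannabes than in control Treg cells, which edgeR did not call (adjusted p = 0.0759), whereas DESeq2 did (adjusted p = 0.0439) and so did edgeR on the 2 groups alone (adjusted p = 0.0456). In control Treg cells against male wannabes, Il3 had adjusted p-values of 0.0439 to 0.205 over its 13 alternative fits in edgeR or DESeq2. All rescued libraries lay below the male wannabes (log2 fold change -3.26, standard error 2.17, edgeR adjusted p = 0.364), and rescued against control Treg cells had an edgeR adjusted p of 0.375.

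Lta, which encodes the secreted lymphotoxin α, moved against Csf1. Control Treg replicates 1 to 3 had 3260.1, 3689 and 2935 normalized counts of Lta, rescued Treg replicates 1 to 3 had 939.9, 1496 and 962, and male wannabe replicates 1 and 2 had 1637 and 2455. The 3 groups did not overlap: every control library was highest, every rescued library lowest, and the wannabes lay between. Lta fell in rescued against control Treg cells (log2 fold change -1.54, standard error 0.239, edgeR adjusted p = 0.00964), at -1.78 to -1.42 in the 8 fits with a library left out, all of them called. In rescued Treg cells against male wannabes Lta also passed the threshold (log2 fold change -0.85, standard error 0.258, edgeR adjusted p = 0.0497), but the adjusted p lay just under it. That call was lost in 6 of 8 fits with a library left out: without male wannabe replicate 2 (-0.58, edgeR adjusted p = 0.245), rescued replicate 1 (0.135) or 3 (0.137), and any control replicate (0.0813, 0.0708 and 0.0728). It was also lost when only the 2 groups were fitted (-0.88, edgeR adjusted p = 0.109). In rescued Treg cells against male wannabes, Lta had adjusted p-values of 0.0117 to 0.245 over its 13 alternative fits in edgeR or DESeq2. Control Treg cells against male wannabes gave 0.69 (edgeR adjusted p = 0.103), and of 13 alternative fits the replicate block alone called it (0.81, edgeR adjusted p = 0.0285).

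In wannabes Lta stayed near its resting level: resting replicates 1 to 3 had 1778, 1673 and 1887 normalized counts and activated replicates 1 and 2 had 1841 and 2258. The lower activated library lay inside the resting range, and edgeR made no call (log2 fold change 0.20, standard error 0.117, edgeR adjusted p = 0.258). The change of Lta in Treg cells minus its change in wannabes was -1.73 on the log2 scale (standard error 0.306, edgeR adjusted p = 0.0136). Without activated wannabe replicate 2 that difference was -1.57 and no longer called (edgeR adjusted p = 0.097). For this difference of changes, Lta had adjusted p-values of 1.8e-05 to 0.097 over its 17 alternative fits in edgeR or DESeq2. In this contrast cell population, sex, age, treatment and experiment cannot be told apart.

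Tnf, the best known macrophage-activating member of the family, had 1681, 1880.1 and 1423 normalized counts in control Treg cells, 977, 1290.0 and 554 in rescued Treg cells and 962 and 1063 in male wannabes. All control libraries lay above all other male libraries, and rescued Treg cells spanned the wannabes. Tnf was not called in rescued against control Treg cells (log2 fold change -0.82, standard error 0.288, edgeR adjusted p = 0.18), nor in control Treg cells against male wannabes (log2 fold change 0.72, standard error 0.326, edgeR adjusted p = 0.16), nor in rescued Treg cells against male wannabes (edgeR adjusted p = 0.871). With the replicate number as a block it was called in control Treg cells against male wannabes (0.94, edgeR adjusted p = 0.0439), and in none of its other alternative fits in that comparison. In the female experiment Tnf had 758, 1292 and 855 in resting and 892 and 639 in activated wannabes, overlapping, with no call (log2 fold change -0.34, standard error 0.263, edgeR adjusted p = 0.382).

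Ltb, the membrane-anchoring partner of lymphotoxin α, was low in male wannabes. Control Treg replicates 1 to 3 had 33625, 34421 and 27125 normalized counts of Ltb, rescued Treg replicates 1 to 3 had 23924, 33683 and 27306, and male wannabe replicates 1 and 2 had 4943 and 12766. Control and rescued Treg cells overlapped, and each lay wholly above the wannabes, of which replicate 1 was much the lower. Ltb was higher in control Treg cells than in male wannabes (log2 fold change 1.84, standard error 0.333, edgeR adjusted p = 0.00429) and in rescued Treg cells than in male wannabes (log2 fold change 1.68, standard error 0.33, edgeR adjusted p = 0.0063), but not between rescued and control Treg cells (log2 fold change -0.17, standard error 0.278, edgeR adjusted p = 0.857). Without male wannabe replicate 2 the first 2 log2 fold changes were 2.64 and 2.47, and without replicate 1 they were 1.31 and 1.15. Resting wannabes of the female experiment had 27634, 29212 and 31240.5 and activated wannabes 23048 and 23838, with the activated libraries lower than all resting ones. That small drop was called (log2 fold change -0.33, standard error 0.0787, edgeR adjusted p = 0.0291). It was not called without activated wannabe replicate 1 (-0.31, edgeR adjusted p = 0.178) or replicate 2 (-0.36, edgeR adjusted p = 0.135), nor with the replicate number as a block (-0.28, edgeR adjusted p = 0.0598). In activated against resting wannabes, Ltb had adjusted p-values of 0.00444 to 0.178 over its 9 alternative fits in edgeR or DESeq2.

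Ccl3, a ligand of Ccr1 that draws monocytes and macrophages, was at 0 in all control Treg libraries, at 0 and 11.9 normalized counts in male wannabes and at 3.78, 203 and 139.9 in rescued Treg cells. Ccl4, its neighbour and close relative, had 7.49, 4.55 and 28.4 in control Treg cells, 31 and 193 in male wannabes and 30.3, 336 and 289 in rescued Treg cells. For each gene rescued replicates 2 and 3 were the highest of the 8 male libraries, and rescued replicate 1 was little above the highest control library. Against the floor of 3 counts per library, mean Ccl3 was at least 39.5-fold higher in rescued than in control Treg cells, without an edgeR call (adjusted p = 0.0764). Ccl3 was called by DESeq2 (adjusted p = 7.69e-05), without the filter on low counts (edgeR adjusted p = 0.0121), with the replicate number as a block (edgeR adjusted p = 0.0354) and without male wannabe replicate 1 (edgeR adjusted p = 0.0305) or 2 (edgeR adjusted p = 0.0324). In rescued against control Treg cells, Ccl3 had adjusted p-values of 7.69e-05 to 0.21 over its 12 alternative fits in edgeR or DESeq2. Ccl4 was not called by edgeR either (log2 fold change 4.00, standard error 1.08, edgeR adjusted p = 0.0884), while DESeq2 called it (adjusted p = 0.00121), as did edgeR without the filter (adjusted p = 0.0237) and without male wannabe replicate 1 (adjusted p = 0.0437). For the same comparison, Ccl4 had adjusted p-values of 0.00121 to 0.27 over its 13 alternative fits in edgeR or DESeq2.

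The same 2 rescued libraries hold Ncr1 and Klre1, 2 of the 5 natural killer (NK) cell genes listed, and all cells were sorted as NK1.1-. Ncr1, which encodes the NK cell receptor NKp46, was at 0 in all control Treg and male wannabe libraries and in rescued replicate 1, and at 65.9 and 50.6 normalized counts in rescued replicates 2 and 3. Klre1 followed it, at 18.1 and 25.8 in those libraries and 0 in the other 6. Of the 5 NK cell genes listed, 3 were counted in these 2 libraries and 1, Klrb1c, in the other 6, while Klra4 and Klra8 were at 0 in all 13. The summed level of the 5 was 20.3, 13.7 and 43.5 in control Treg cells, 151 and 225 in male wannabes, 101, 240.4 and 121 in rescued Treg cells, 53.7, 76.3 and 43.5 in resting and 67.2 and 101 in activated wannabes. Klrb1c, which encodes NK1.1, had the most normalized counts of them in every library but rescued replicate 3, where Ncr1 had the most. It did not single out rescued replicates 2 and 3, with 20.3, 13.7 and 43.5 normalized counts in control Treg cells, 101, 156 and 44.2 in rescued Treg cells and 151 and 225 in male wannabes. The part of NK cell transcripts in the levels of Ccl3, Ccl4 and Xcl1 was not tested. A fit chosen after seeing these data leaves out rescued replicates 2 and 3 and so assumes that the remaining rescued library varies like the other groups. It says nothing of Ccl3, Ccl4, Ccl5 and Xcl1, which are higher in the libraries left out than in the remaining rescued library. Csf1 and Lta were called in rescued against control Treg cells in that fit as well, at 2.80 (edgeR adjusted p = 0.0066) and -1.80 (edgeR adjusted p = 0.0227). Against male wannabes it kept Csf1 (1.85, edgeR adjusted p = 0.026) and lost Ltb, which is lower in the remaining rescued library than in the others (1.41, edgeR adjusted p = 0.0677), and Lta (-1.15, edgeR adjusted p = 0.0733).

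**Figure D3:**
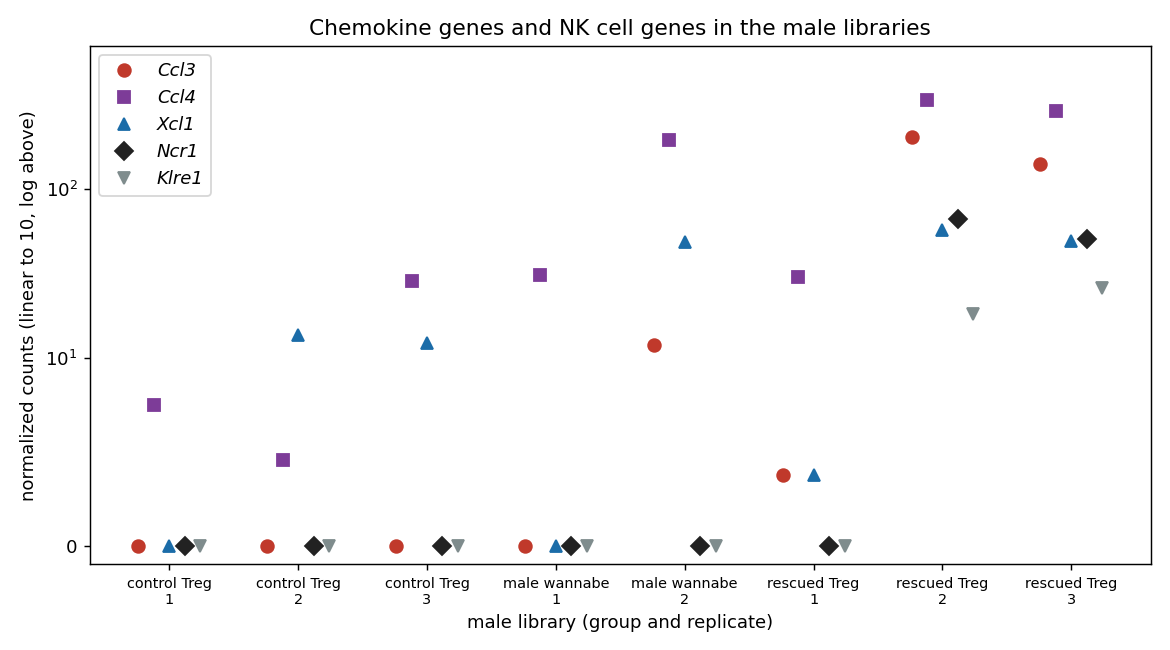
Normalized counts of Ccl3, Ccl4 and Xcl1 with the NK cell genes Ncr1 and Klre1 in the 8 male libraries, on an axis linear to 10 and logarithmic above. Ncr1 is at 65.9 and 50.6 in rescued Treg replicates 2 and 3 and at 0 in the other 6 libraries.

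The 2 male wannabes lay above all control Treg libraries for Ccl4, without an edgeR call (log2 fold change -3.04, standard error 1.1, edgeR adjusted p = 0.0829). It was called by DESeq2 (adjusted p = 0.0204), without the filter on low counts (edgeR adjusted p = 0.0451), without male wannabe replicate 1 (-3.83, edgeR adjusted p = 0.041), without rescued replicate 1 (edgeR adjusted p = 0.0457) and with the replicate number as a block (edgeR adjusted p = 0.0484). Without male wannabe replicate 2 it was -1.25 (edgeR adjusted p = 0.54). In control Treg cells against male wannabes, Ccl4 had adjusted p-values of 0.0204 to 0.54 over its 13 alternative fits in edgeR or DESeq2. Resting wannabes had 1.05, 1.02 and 5.18 normalized counts of Ccl4 and activated wannabes 26.5 and 26.8, so that the activated libraries were alike and above all resting ones. The rise was called (log2 fold change 3.39, standard error 0.736, edgeR adjusted p = 0.0218) and lost without activated replicate 1 (edgeR adjusted p = 0.132) or 2 (edgeR adjusted p = 0.14). Without resting replicate 3 the log2 fold change was 4.53. Ncr1 was at 0 in all resting wannabes and at 1.89 and 2.87 normalized counts in the activated wannabes, and Klre1 at 1.89 in activated replicate 1 and 0 in the other female libraries, and their part in the rise of Ccl4 was not tested. In activated against resting wannabes, Ccl4 had adjusted p-values of 0.00946 to 0.14 over its 9 alternative fits in edgeR or DESeq2. Ccl3 had 0 counts in all resting wannabes and 4.73 and 7.65 normalized counts in the activated wannabes, at least 1.99-fold above the floor, and too few counts to be tested.

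Ccl5, which attracts monocytes, T cells and eosinophils through Ccr1 and Ccr3, had 295, 320.3 and 217 normalized counts in control Treg cells, 226, 504 and 683 in rescued Treg cells and 317 and 1424 in male wannabes. Resting wannabes had 3.16, 9.16 and 5.18 and activated wannabes 122 and 100.4. The male groups overlapped, with male wannabe replicate 2 the highest male library, whereas the activated wannabes lay far above the resting ones. Ccl5 rose in activated against resting wannabes (log2 fold change 4.22, standard error 0.463, edgeR adjusted p = 0.00199), at 3.93 to 4.69 in the 5 fits with a library left out, all called. None of the male comparisons was called: rescued against control Treg cells (log2 fold change 0.76, standard error 0.523, edgeR adjusted p = 0.547), control Treg cells against male wannabes (log2 fold change -1.64, standard error 0.574, edgeR adjusted p = 0.0748) and rescued Treg cells against male wannabes (edgeR adjusted p = 0.343). The control to wannabe difference was called by DESeq2 (adjusted p = 0.0189), without the filter (edgeR adjusted p = 0.0312) and without male wannabe replicate 1 (-2.36, edgeR adjusted p = 0.0103). Without male wannabe replicate 2 it was -0.24 (edgeR adjusted p = 0.815). In control Treg cells against male wannabes, Ccl5 had adjusted p-values of 0.0103 to 0.815 over its 13 alternative fits in edgeR or DESeq2.

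The change of Ccl5 in Treg cells minus its change in wannabes was -3.44 (log2, standard error 0.847, edgeR adjusted p = 0.0662). That difference was called by DESeq2 (adjusted p = 0.00276), without the filter on low counts (edgeR adjusted p = 0.0355), and without male wannabe replicate 1 (edgeR adjusted p = 0.0154) or 2 (edgeR adjusted p = 0.0171). For this difference of changes, Ccl5 had adjusted p-values of 0.00276 to 0.224 over its 17 alternative fits in edgeR or DESeq2. In RPKM, mean Ccl5 ran from 0.205 (SD 0.107) in resting through 3.9 (SD 0.537) in activated wannabes, 8.81 (SD 1.72) in control and 15 (SD 7.31) in rescued Treg cells to 27.6 (SD 24.8) in male wannabes, and the upper 3 overlapped within their spread.

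Xcl1, the ligand of Xcr1 on cross-presenting dendritic cells, had 0, 13.7 and 12.3 normalized counts in control Treg cells, 3.78, 56.9 and 48.8 in rescued Treg cells and 0 and 48.6 in male wannabes. In the female experiment it had 3.16, 13.2 and 3.11 in resting and 21.8 and 3.83 in activated wannabes. All groups overlapped, with rescued replicates 2 and 3 and male wannabe replicate 2 above the rest. EdgeR called Xcl1 in none of the 4 comparisons (adjusted p = 0.669, 0.653, 0.886 and 0.512). Gm20743 spans Xcl1 on the other strand and had 5 counts in control replicate 2, 4 in resting replicate 1, 11 in activated replicate 1 and 0 in the other 10 libraries, and reads of the 2 genes cannot be told apart without the strand setting.

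Markers of other cells had lower summed normalized counts than the T cell genes in every library. The T cell sum includes Foxp3, the gene the alleles alter, which had the most counts of them in each rescued library. The CD8 T cell genes Cd8a and Cd8b1 summed to between 288 (resting wannabe replicate 2) and 914 (male wannabe replicate 2). Nearly all of this was Cd8b1, with 280.8 and 912.1 normalized counts in these 2 libraries, while Cd8a had at most 17 counts in any library. Basophil and mast cell genes summed to at most 126 (control Treg replicate 2) and platelet genes to at most 107 (male wannabe replicate 1). Of 7 monocyte and macrophage genes (Lyz2, Csf1r, Cd68, Itgam, Adgre1, Cd14 and Fcgr1), 3 to 7 were counted per library. Their sum was 342, 150.2 and 381 in control Treg cells, 439.7, 178 and 279 in rescued Treg cells, 109 and 219 in male wannabes, 42.1, 142 and 152 in resting and 279 and 162 in activated wannabes. Itgam, Cd68, Adgre1 or Lyz2 had the most normalized counts of them, a unit that is not comparable between genes. Csf1r was at 0 in 5 of the 8 male libraries. In rescued against control Treg cells, where Csf1 rose, 6 of the 7 had a higher mean and Itgam a lower one, and the 5 tested had a median log2 fold change of 1.45 against -0.03 over all genes. Cd68 had 7.49, 22.8 and 22.7 normalized counts in control and 162, 101 and 168 in rescued Treg cells, without overlap, and the libraries of the other 6 overlapped. Cd68 was not called by edgeR (log2 fold change 3.01, standard error 0.813, edgeR adjusted p = 0.0887) but by DESeq2 (adjusted p = 0.00433). In activated against resting wannabes the 4 tested had a median of 1.22 against -0.01. EdgeR called 0 of these 4, with 1 at an unadjusted p under 0.05 and 0 called by DESeq2. There Cd68 had 12.6, 28.5 and 34.2 in resting and 63.4 and 56.4 in activated wannabes, and Lyz2 had 14.7, 43.8 and 21.8 in resting and 70 and 52.6 in activated wannabes, each without overlap. The part of monocyte and macrophage transcripts in the changes of the 10 genes was not tested. The 5 neutrophil genes summed to at most 32.9, in male wannabe replicate 1, where Ly6g was the only one counted. The 4 B cell genes listed (Cd79a, Cd79b, Ms4a1 and Pax5) summed to 1143, 1275 and 1051 in control Treg cells, 1251, 1370.1 and 1389 in rescued Treg cells, 1134 and 1449.7 in male wannabes, 343, 339 and 286 in resting and 729.6 and 669.6 in activated wannabes. Cd79b had the most normalized counts of them in every library. It rose in activated wannabes beside Csf1, Il3, Ccl4 and Ccl5 (log2 fold change 1.34, standard error 0.146, edgeR adjusted p = 0.00193). Cd79a was at -0.01 there (edgeR adjusted p = 0.986), with means of 66.3 normalized counts in resting and 66.1 in activated wannabes, Ms4a1 went from a mean of 8.65 to 2.39, and Pax5 had at most 5 counts in a female library. The part of B cell transcripts in those changes was not tested. Klrb1c was lower in control Treg cells than in male wannabes (log2 fold change -2.85, standard error 0.758, edgeR adjusted p = 0.0263), in the comparison where Ltb was higher, and Itgam was higher there (log2 fold change 4.03, standard error 1.06, edgeR adjusted p = 0.0256). The part of either in the change of Ltb was not tested.

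Receptors of these ligands were looked at from a list of 12 (Csf1r, Csf2ra, Csf2rb, Csf2rb2, Il3ra, Tnfrsf1a, Tnfrsf1b, Ltbr, Tnfrsf14, Ccr1, Ccr3 and Xcr1), and 9 were tested in each comparison. In rescued against control Treg cells, where Csf1 rose, edgeR called 0 of these 9, with 3 at an unadjusted p under 0.05 and 0 called by DESeq2. Control Treg cells against male wannabes had Ccr3 (2.74, edgeR adjusted p = 0.00581) higher and Ccr1 (-3.67, edgeR adjusted p = 0.0411) lower, and rescued Treg cells against male wannabes had Ccr3 (3.46, edgeR adjusted p = 0.00179) and the TNF receptor gene Tnfrsf1b (0.79, edgeR adjusted p = 0.035) higher. In activated against resting wannabes, where Ccl4 and Ccl5 rose, 1 receptor of the list was higher, Ccr3 (2.20, edgeR adjusted p = 0.0479), and 3 were lower, led by Ccr1 (-2.40, edgeR adjusted p = 0.0079) and the TNF receptor gene Tnfrsf1a (-0.69, edgeR adjusted p = 0.0129). Median log2 fold changes of the tested receptors in these 4 comparisons were 0.92, 0.17, 0.42 and 0.38 (over all genes -0.03, 0.09, 0.00 and -0.01). The share of all genes called by edgeR there was 2.3, 16.2, 14.1 and 22.5 percent.

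Beside Csf1, Csf2 and Il3, a list of 9 other growth factors (Csf3, Il5, Il34, Kitl, Flt3l, Il6, Il11, Lif and Osm) had 6 tested genes in the male and 3 in the female experiment. EdgeR called 0 of 6 in rescued against control Treg cells, with 0 at an unadjusted p under 0.05 and 0 called by DESeq2. The interleukin-6 family genes Lif (-1.73, edgeR adjusted p = 0.0107) and Osm (-0.80, edgeR adjusted p = 0.0329) were lower in control Treg cells than in male wannabes, Lif was lower in rescued Treg cells than in male wannabes (-1.94, edgeR adjusted p = 0.00595), and Lif (2.22, edgeR adjusted p = 0.0011) and Osm (0.46, edgeR adjusted p = 0.0213) rose with Csf1 and Il3 in activated wannabes. In the difference of changes Lif was called as well (-2.42, edgeR adjusted p = 0.0178). Median log2 fold changes were -1.14, -1.05, -1.39 and 1.86 (over all genes -0.03, 0.09, 0.00 and -0.01). In the same comparisons edgeR called 2.3, 16.2, 14.1 and 22.5 percent of all genes, and 1.53 percent in the difference of changes.

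Of 15 further TNF family ligands, 12 were tested in the male and 11 in the female experiment, beside Tnf, Lta and Ltb. While Lta fell in rescued against control Treg cells, the B cell factor gene Tnfsf13b (3.11, edgeR adjusted p = 0.0308) and the RANK ligand gene Tnfsf11 (1.13, edgeR adjusted p = 0.0493) rose. Control Treg cells against male wannabes, where Ltb was higher, had 1 ligand higher and 5 lower, the largest changes being Tnfsf13b (-4.62, edgeR adjusted p = 0.00202), the CD30 ligand gene Tnfsf8 (-2.43, edgeR adjusted p = 0.000382) and Tnfsf14 (-1.87, edgeR adjusted p = 0.0132), whose product LIGHT shares the lymphotoxin β receptor. Rescued Treg cells against male wannabes had 1 higher, Tnfsf11 (2.11, edgeR adjusted p = 0.00118), and 3 lower, among them Tnfsf8 (-2.13, edgeR adjusted p = 0.000395) and Tnfsf14 (-1.68, edgeR adjusted p = 0.022), and activated against resting wannabes had only Tnfsf13b (1.33, edgeR adjusted p = 0.0242) higher. Median log2 fold changes were 0.31, -1.63, -1.38 and 0.29 (over all genes -0.03, 0.09, 0.00 and -0.01). Of all genes, 2.3, 16.2, 14.1 and 22.5 percent were called by edgeR in the same comparisons. In control Treg cells against male wannabes these were 9.92 percent higher and 6.27 percent lower.

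Of 34 further chemokines, 11 were tested in the male and 9 in the female experiment, beside Ccl3, Ccl4, Ccl5 and Xcl1. EdgeR called 0 of 11 in rescued against control Treg cells, with 1 at an unadjusted p under 0.05 and 1 called by DESeq2. Ccl1, a ligand made by activated T cells, was lower in control Treg cells (-6.88, edgeR adjusted p = 0.00202) and in rescued Treg cells (-2.97, edgeR adjusted p = 0.0446) than in male wannabes, the cells in which Il3 was highest among male libraries. In activated against resting wannabes 4 were higher, led by Ccl8 (5.92, edgeR adjusted p = 0.00744), Ccl1 (5.56, edgeR adjusted p = 0.00474) and Ccl6 (4.49, edgeR adjusted p = 0.0252), and 1 was lower. The lower one was Ccl20, which went from a mean of 7928.16 normalized counts in resting to 423.32 in activated wannabes. There 11.3 percent of all genes were called higher and 11.2 percent lower. Median log2 fold changes were 0.04, -0.62, -1.11 and 0.59 (over all genes -0.03, 0.09, 0.00 and -0.01). The share of all genes called by edgeR in the same comparisons was 2.3, 16.2, 14.1 and 22.5 percent.

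All 17 transcription factors of a list known from T cell cytokine genes were tested. In rescued against control Treg cells Tbx21, which encodes T-bet, and Nfatc1 rose with Csf1 and Rel fell with Lta: Tbx21 from a mean of 335 to 1618 normalized counts (2.27, edgeR adjusted p = 0.0192), Nfatc1 from 12274 to 19408 (0.66, edgeR adjusted p = 0.0361) and Rel, an NF-κB subunit gene, from 3267 to 1562 (-1.07, edgeR adjusted p = 0.0159). Control Treg cells against male wannabes had 5 higher and 3 lower, led by Bhlhe40 (-2.48, edgeR adjusted p = 0.00016), Relb (1.70, edgeR adjusted p = 0.00387) and Rel (1.39, edgeR adjusted p = 0.00209), and rescued Treg cells against male wannabes 7 higher and 3 lower, led by Tbx21 (2.88, edgeR adjusted p = 0.00354), Relb (2.39, edgeR adjusted p = 0.000589) and Bhlhe40 (-1.76, edgeR adjusted p = 0.0004). Activated against resting wannabes had 2 higher and 4 lower, among them Tbx21 (3.10, edgeR adjusted p = 0.000465), Irf4 (-1.02, edgeR adjusted p = 0.0136) and Nfkb1 (-0.83, edgeR adjusted p = 0.0374). Nfatc1 was also called lower there, where Csf1 rose, with means of 22870.5 normalized counts in resting and 18480.2 in activated wannabes. In the difference of changes Rel was at -1.33, edgeR adjusted p = 0.0135 and Nfatc1 at 0.99, edgeR adjusted p = 0.0144, beside Lta at -1.73. Median log2 fold changes were 0.35, 0.36, 0.44 and 0.10 (over all genes -0.03, 0.09, 0.00 and -0.01). Of all genes, 2.3, 16.2, 14.1 and 22.5 percent were called by edgeR in the same comparisons and 1.53 percent in the difference of changes.

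Proteins that bind cytokine mRNAs were the last list, with 9 of 9 genes tested. EdgeR called 0 of 9 in rescued against control Treg cells, with 3 at an unadjusted p under 0.05 and 2 called by DESeq2. Control Treg cells against male wannabes had Rc3h1 (1.49, edgeR adjusted p = 0.00079) and Zfp36l1 (0.69, edgeR adjusted p = 0.0395) higher. Rescued Treg cells against male wannabes had 3 higher and 1 lower, led by Zfp36l2 (1.75, edgeR adjusted p = 0.0114), Rc3h1 (1.55, edgeR adjusted p = 0.000397) and Zc3h12a (-1.31, edgeR adjusted p = 0.0103). Activated against resting wannabes had Hnrnpd (1.71, edgeR adjusted p = 0.0138) and Khsrp (0.88, edgeR adjusted p = 0.0487) higher and Zfp36l1 (-0.94, edgeR adjusted p = 0.00113) lower. Median log2 fold changes were 0.23, 0.69, 0.20 and 0.24 (over all genes -0.03, 0.09, 0.00 and -0.01). In the same comparisons edgeR called 2.3, 16.2, 14.1 and 22.5 percent of all genes.

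The 10 genes were related to each other over the 13 libraries in different ways, given here as Pearson r of log2 CPM. Each gene's mean within each of the 2 experiments was subtracted first, so differences between the experiments are not in r. Differences between the groups of an experiment remain in it. Ccl3 and Ccl4 had the highest r of the 45 pairs, 0.88, followed by Csf1 with Ccl3 (0.78) and Csf1 with Ccl4 (0.77). Tnf and Lta had an r of 0.68, while Ltb, their neighbour, had 0.33 with Tnf and 0.14 with Lta. Csf1 and Lta were at -0.53 over the 13 libraries and -0.85 over the 8 male ones. Csf2 and Il3 had an r of 0.59, and Il3 with Ltb was at -0.67, the lowest of all pairs.

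Among 10240 candidate genes, those whose levels were most like each of the 10 by the same r over 13 libraries were as follows. Csf1 was most like Itgae (0.969), Lsr (0.955) and Rab26 (0.942), of which Itgae encodes the integrin αE chain CD103. Csf2 was most like Tlr6 (0.837), Gzma (0.83) and Nsdhl (0.812), and Il3 most like Bckdk (0.945), Hars (0.925) and Ncoa7 (0.924). For the TNF family genes they were Rexo2 (0.902), Mmp11 (0.858) and Spry1 (0.855) for Tnf, Maged2 (0.937), Ccdc53 (0.924) and Ms4a4c (0.916) for Lta and Trnau1ap (0.981), Jmjd8 (0.981) and Stub1 (0.978) for Ltb. Ccl3 was nearest to Padi2 (0.885), Abr (0.862) and Lcp2 (0.859), and Ccl4 was near to Hilpda (0.948) and Lcp2 (0.914), so that Lcp2, which encodes the T cell adaptor SLP-76, stood in each of the 2 lists. Ccl5 was nearest to Tnfrsf4 (0.961), Gm16712 (0.955) and Ebi3 (0.948), of which Tnfrsf4 encodes OX40 and Ebi3 a subunit of interleukin-27 and interleukin-35. Xcl1 was nearest to Scaf1 (0.881), H2-Q7 (0.877) and H2-Q10 (0.875).

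Of the 10 genes, 8 lie in 3 clusters (positions in GRCm38, GENCODE M21). Ltb at chr17:35194439-35196320 on the forward strand, Tnf at chr17:35199381-35202007 on the reverse strand and Lta at chr17:35203165-35205351 on the reverse strand follow each other, with gaps of 3060 bases between Ltb and Tnf and 1157 between Tnf and Lta. Their calls differed: Lta fell in rescued against control Treg cells, where Tnf and Ltb were not called, and Ltb was called against male wannabes, where Tnf was not. Csf2 at chr11:54247271-54249667 on the reverse strand and Il3 at chr11:54265303-54267277 on the reverse strand are 15635 bases apart. On the same chromosome, Ccl5 at chr11:83525778-83530518 on the reverse strand is 117325 bases from Ccl3 at chr11:83647844-83649355 on the reverse strand, which is 13228 bases from Ccl4 at chr11:83662584-83664683 on the forward strand. Csf1 at chr3:107741048-107760469 on the reverse strand and Xcl1 at chr1:164931644-164935527 on the reverse strand stand alone.

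**Figure D4:**
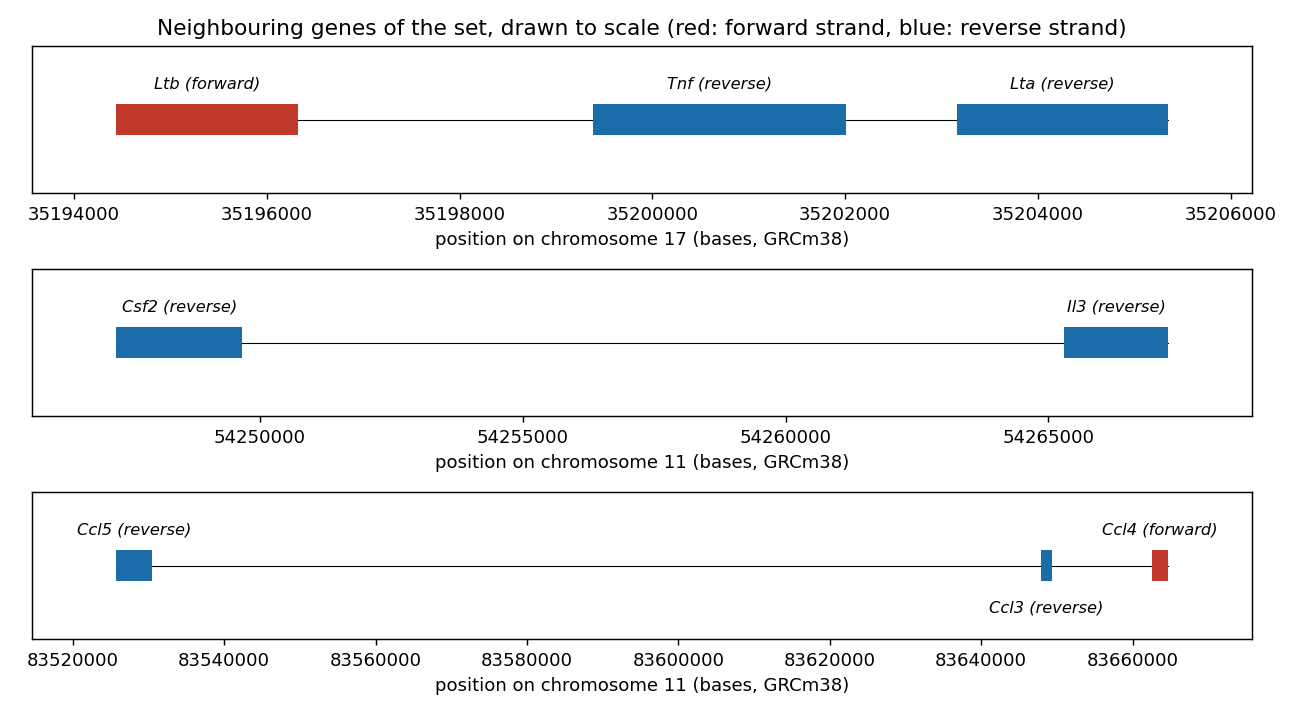
Positions of the 3 clusters in GRCm38, each drawn to its own scale, with genes of the forward strand in red and of the reverse strand in blue. Tnf and Lta are 1157 bases apart, Csf2 and Il3 15635, and Ccl3 and Ccl4 13228.

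The 10 mRNAs differ in AU-rich elements, the 3′ untranslated region (UTR) stretches built of ATTTA that mark many short-lived cytokine mRNAs. ATTTA, read on the transcript strand in the longest annotated 3′ UTR of each gene, occurs 9 times in Csf2, 8 in Tnf, 5 in Ccl3, 4 in Csf1, 3 in Lta, 2 in Ccl4, 1 each in Il3 and Xcl1, and not in Ltb or Ccl5. These UTRs run from 101 bases in Il3 to 2111 in Csf1, so the counts also follow length. Per kilobase there are 28.4 ATTTA in Csf2, 12.2 in Ccl3, 10.5 in Tnf and 9.90 in Il3. Then come Xcl1 with 7.09, Ccl4 with 6.62, Lta with 5.24 and Csf1 with 1.89. Over 21020 genes, 65.2 percent hold ATTTA at least once and 35.7 percent at least 3 times. The longer TTATTTATT, which overlaps ATTTA, occurs 5 times in Tnf, 4 in Csf2 and 1 time in Lta, and in 7.7 percent of all genes. The stretches of at most 30 bases with most ATTTA are shown for 4 genes because they show how the copies run into each other in Tnf and Csf2 and are spread out in Csf1 and Lta, the 2 genes called in rescued against control Treg cells. Capitals mark ATTTA, and the positions in the UTR are 440 to 469 for Tnf, 239 to 268 for Csf2, 2034 to 2063 for Csf1 and 301 to 330 for Lta.
Tnf: ATTTAttATTTATTTAttATTTATTTAttt
Csf2: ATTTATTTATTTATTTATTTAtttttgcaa
Csf1: ATTTAaatatctATTTAaaaaataggaagc
Lta: ATTTAtggagagaaaagttaagttATTTAt

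Promoters of 8 of the 10 genes were matched in RefSeq (GRCm38.p6), not those of Ccl4 and Ccl5, and the 250 bases before each RefSeq gene start were searched on both strands. The NF-κB letters GGG, any 2 bases and TTTCC occur in Csf1 and Ltb and in 1.4 percent of 32851 promoters. The NFAT core GGAAA occurs in all 8, with 3 matches each in Csf1 and Tnf, and in 55.6 percent of promoters. AP-1 letters TGANTCA occur in none of the 8 (6.7 percent of promoters), RUNX letters TGTGGT in Il3, Ccl3 and Xcl1 (14.0 percent), and TATAAA in Tnf and Lta (12.4 percent). For Csf2 the stretch searched is chr11:54249900-54250149 on the reverse strand, whereas the GENCODE gene given above begins at 54249667 on that strand. The bases directly before that GENCODE start were not searched, so absent matches in Csf2 do not cover them. The stretches of Csf1 and Ltb with the NF-κB match are shown because the 10 bases are identical in the 2 genes. Capitals mark the match, which reads GGG, 2 bases and TTTCC on the other strand and contains a GGAAA of its own. Csf1 is chr3:107760606-107760635 on the reverse strand, with the match at bases -154 to -145 from the RefSeq gene start, and Ltb is chr17:35194408-35194437 on the forward strand, with the match at -87 to -78 from the RefSeq gene start, which for Ltb lies inside the GENCODE gene given above. A match of letters is a description and shows no binding.
Csf1: tcgggccttgagGGAAAGTCCCtaggggcc
Ltb: ggaagggtgttcGGAAAGTCCCcgggcagg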

How the data were processed

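The authors aligned reads to GRCm38 with STAR 2.7.3a, realigned them with GATK, counted reads per gene in R and tested the counts with DESeq2 1.28.1; the deposited values are raw counts per gene, and annotation and strand setting are not given in the sources used here. Here the deposited counts of 13 libraries were fitted in R 4.3.3 with edgeR 4.0.16 (TMM, filterByExpr, quasi-likelihood F test, Benjamini-Hochberg over all genes), the 8 male libraries together, the 5 female libraries together, and all 13 for the difference of changes. Unnamed entries (4 of 24421) were left out of tests. Count columns of the male experiment are headed GFP, Thy1 and DTR. They were assigned to rescued Treg cells, wannabes and control Treg cells from the study's sorting and genotypes. RPKM used GENCODE M21 exon lengths. Alternatives were DESeq2 1.42.0, its size factors in edgeR, no filter, a replicate block, only the groups compared, and each library left out, with 1 more chosen after seeing the data. The members and lists were chosen with earlier results of these data known. Named are all 10 members, the 3 largest called changes of each pathway list, and the 3 genes most like each member; other genes were named after their values were seen. The fits were tested on simulated counts in 3 of the 5 contrasts, where DESeq2 recovered more changes and made more false calls than edgeR. Some genes of the lists and of the likeness ranking are not reported here, and list counts, sums and medians are without them.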

Additional observations from a re-analysis of the deposited data

Results flagged for a closer look

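Of the 10 genes, edgeR called Lta alone in the difference of changes, and DESeq2 called Lta and Ccl5. The change of Lta in rescued against control Treg cells minus its change in activated against resting wannabes was -1.73 on the log2 scale (edgeR adjusted p = 0.0136). It was tested in the fit of all 13 libraries. The male and female experiments differ in sex, age and treatment as well as in cell population, and these cannot be told apart.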

How the results depend on the processing

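With DESeq2's size factors in edgeR every member kept its call and direction. DESeq2 itself called 4 members in rescued against control Treg cells, 5 in control Treg cells against male wannabes and 2 in the difference of changes, and leaving out the filter on low counts gave 4, 4 and 2; the cause was not tested. Of all genes, edgeR called 343, 2416 and 233 in these contrasts, DESeq2 1096, 3601 and 770, and edgeR without the filter 612, 2579 and 311. Fitting only the 2 groups gave 2 members and 2056 of all genes in control Treg cells against male wannabes, with fewer libraries to estimate spread. With 1 library left out, the number of members called (and of all genes) ranged over 2 to 4 (114 to 598) in rescued against control Treg cells, 1 to 4 (1549 to 2423) in control Treg cells against male wannabes, 2 to 3 (1570 to 1959) in rescued Treg cells against male wannabes, 2 to 5 (751 to 3215) in activated against resting wannabes and 0 to 2 (44 to 430) in the difference of changes. A lone library was then assumed to vary like the other groups. Log2 fold changes that changed sign ranged over -0.41 to 8.20 for Xcl1, -0.37 to 1.76 for Csf2, -1.60 to 0.52 for Ccl5 and -0.36 to 0.17 for Tnf in rescued Treg cells against male wannabes, -2.47 to 6.14 for Xcl1 in control Treg cells against male wannabes, -0.75 to 1.71 for Xcl1 in activated against resting wannabes, and -1.29 to 4.60 for Csf2 and -0.52 to 1.79 for Ccl4 in the difference of changes; none of these was called, and the cause was not tested.

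With the replicate number as a block, 3, 4, 3, 4 and 1 members were called in the 5 contrasts, beside 426, 2304, 1968, 2045 and 238 of all genes, against 343, 2416, 2105, 2958 and 233 without the block. Deviations of same-numbered libraries correlated at -0.08 to 0.23, and those of differently numbered libraries at -0.23 to 0.20. These are deviations from means of 2 or 3 libraries, and in a group of 2 they are exact opposites. The check therefore cannot settle whether the numbers pair the libraries. Under the block Csf2 was at -0.18 and Tnf at 0.0433 in rescued Treg cells against male wannabes, and Ccl4 at -0.87 in the difference of changes, each of the other sign; the cause was not tested.

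Without the 2 rescued libraries with Ncr1 counts, a fit chosen after seeing the data, 1 member was called against male wannabes and 2 in the difference of changes, beside 1142 and 396 of all genes; the member gained is Ccl5, whose high rescued libraries were left out. Signs changed for Ccl5 (-0.29) and Xcl1 (-1.16) against control Treg cells, for Csf2 (-1.05), Ccl3 (-0.64), Ccl4 (-1.90) and Xcl1 (-2.66) against male wannabes, and for Ltb (-0.0624), Ccl3 (-0.92), Ccl4 (-2.22) and Xcl1 (-2.11) in the difference of changes; each of these 6 genes is higher in the rescued libraries left out than in the remaining one, so these signs follow from the choice of libraries. No value was obtained for Il3, Ccl3 or Xcl1 where a fit left all libraries compared at 0 or the gene untested.

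Groups hold 2 or 3 libraries, and replicates are far apart in the male experiment. Csf2, Il3, Ccl3 and Xcl1 rest on few counts. The effect of other settings on single genes of the lists was not examined.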
